A study of Mus musculus with 89 samples.

Results

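Reelin receptors, the adaptor Dab1 and the plexin B receptors are 6 genes, Dab1, Vldlr, Lrp8, Plxnb1, Plxnb2 and Plxnb3, taken by name from the 24411 genes of the deposited tables. They were chosen with results of these cells already known, since Dab1 was among the genes lower by age over all cells and Plxnb1 among those lower by age in quiescent stem cells. Their age values in those comparisons are therefore a description. The 89 samples are single cells from the dentate gyrus, the part of the hippocampus in which new granule neurons form in the adult mouse. Of these, 41 cells came from C57BL/6 mice aged 4.5 months and 48 from C57BL/6 mice aged 2 months. All mice, at both ages, were homozygous for the Nestin:CFPnuc transgene, a fluorescent protein sent to the nucleus and driven by Nestin regulatory sequence. The cells were sorted after dissociation, with a gate that is not given in the sources used here. The authors' class table splits the cells into 18 aNSC, 11 IPC and 60 qNSC, taken here as activated stem cells, intermediate progenitors and quiescent stem cells. It also gives the qNSC cells 3 colours, called red (26 cells), green (25 cells) and blue (9 cells) here; the meaning of the colours and the way the classes were assigned are not given in the sources used here. If expression set the classes, some difference between them follows from that choice. No label names the animals, so each age counts as 1 sample, no test between groups was possible, and all SDs are between cells.

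Reelin is a large secreted protein that binds the lipoprotein receptors Vldlr and Lrp8 (also called ApoER2). Both receptors hold Dab1 at their cytoplasmic tails, and on reelin binding Dab1 is phosphorylated on tyrosine by the SRC family kinases Fyn and Src, which passes the signal to Crk adaptors, PI3 kinase and the cytoskeleton. In the dentate gyrus the pathway is known for the layout of the radial glial scaffold and for the placing of granule neurons. Plexin B receptors bind class 4 semaphorins, with Sema4d the best known ligand of Plxnb1, and act on the small GTPases Rhoa and Rras; Plxnb1 and Plxnb2 have been tied to the migration and division of neural progenitors, and Plxnb3 is known as a receptor for Sema5a and as a gene of the oligodendrocyte lineage.

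The genes lie apart except for one pair: in mm10, Dab1 (chr4:103619359-104744844, plus strand) and Lrp8 (chr4:107802261-107876840, plus) share chromosome 4, Vldlr is at chr19:27216484-27254231 (plus), Plxnb1 at chr9:109095389-109119917 (plus), Plxnb2 at chr15:89155549-89180788 (minus) and Plxnb3 at chrX:73757090-73772514 (plus), in GENCODE release 21. An antisense gene, Gm7628, overlaps 257 exonic bases of Plxnb1; it has no line in the tables, and the library kit keeps no strand, so its reads cannot be told apart from those of Plxnb1 there. The 2 promoters listed for Dab1 and the 1 listed for Plxnb1 are shown because these are the 2 genes that were lower at 4.5 months over all cells. Each is 300 bases of GRCm38.p6 from RefSeq, on the plus strand, and capitals mark GC boxes (GGGCGG on either strand). The first Dab1 window is chr4:103619250-103619549, the second is chr4:104367288-104367587, and the Plxnb1 window is chr9:109095186-109095485.
Dab1, first start: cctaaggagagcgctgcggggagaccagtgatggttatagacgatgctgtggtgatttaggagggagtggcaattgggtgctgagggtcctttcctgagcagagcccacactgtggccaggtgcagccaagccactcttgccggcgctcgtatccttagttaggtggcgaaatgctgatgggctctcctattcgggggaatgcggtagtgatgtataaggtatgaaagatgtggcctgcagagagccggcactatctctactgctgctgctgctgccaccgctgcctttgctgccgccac
Dab1, second start: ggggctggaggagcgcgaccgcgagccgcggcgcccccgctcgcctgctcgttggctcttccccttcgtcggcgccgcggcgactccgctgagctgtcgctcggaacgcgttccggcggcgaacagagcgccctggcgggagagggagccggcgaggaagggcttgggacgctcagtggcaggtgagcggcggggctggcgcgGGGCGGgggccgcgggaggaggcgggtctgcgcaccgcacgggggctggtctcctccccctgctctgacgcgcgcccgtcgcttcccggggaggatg
Plxnb1: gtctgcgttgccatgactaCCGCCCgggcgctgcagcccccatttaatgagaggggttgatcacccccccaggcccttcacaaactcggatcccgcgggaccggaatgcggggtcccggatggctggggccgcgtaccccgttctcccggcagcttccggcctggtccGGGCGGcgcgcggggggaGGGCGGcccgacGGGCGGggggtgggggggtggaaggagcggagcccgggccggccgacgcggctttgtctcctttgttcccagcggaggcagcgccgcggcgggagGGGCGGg
The first Dab1 window held 12 CpG and no GC box, the second 46 CpG and 1 GC box, and the Plxnb1 window 36 CpG and 5 GC boxes, against a median of 7 CpG over all 32851 promoters. A GC box was present in 35.7% of those promoters, so the match is a description only. TATAAA, found in 13.6% of all promoters, was in none of the 3 windows, while TGGGAA, the core bound by the Notch partner Rbpj and found in 25.6%, was in the Plxnb1 window once.

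Total counts per cell ran from 234607 to 1896072 (median 912391), and 2156 to 6046 genes were read per cell. Median totals were 884721 in cells of 4.5 months and 949981 in cells of 2 months; blue qNSC cells had 442931 in 5 cells of 4.5 months and 795076 in 4 cells of 2 months. A marker was counted in a cell at 10 or more reads. Of the quiescent stem cell markers, 50% or more were counted in 58 of 60 qNSC cells, 13 of 18 aNSC cells and 6 of 11 IPC cells. The same share of the intermediate progenitor markers was counted in 10 of 11 IPC cells and in no other cell. That share of the mature neuron markers was reached in no cell. Among aNSC cells, 7 of 18 had 50% or more of the oligodendrocyte precursor markers; the same 7 cells had 10 or more reads of Pdgfra, the growth factor receptor of those precursors, and are given apart below. Y-linked genes reached 10 reads in 0 of 41 cells of 4.5 months and in 38 of 48 cells of 2 months, and Xist or Tsix in 37 of 41 cells and 0 of 48 cells. Age and this sex-linked difference cannot be told apart in any comparison below, and no comparison between ages has animals as replicates.

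With all cells pooled, Dab1 had the highest level of the 6 genes per transcript length, followed by Plxnb1. Over the 89 cells, mean TPM, which adjusts for length, was 80.9 ± 113 for Dab1 (SD between cells), 19.2 ± 29.1 for Plxnb1, 11.3 ± 34.2 for Plxnb2, 7.67 ± 19.2 for Lrp8, 6.22 ± 25.9 for Vldlr and 1.31 ± 7.63 for Plxnb3. No neighbours in this order differed beyond their spread between cells. The order changed by group. At 4.5 months Plxnb1 and Lrp8 both averaged 12.2 TPM, and in IPC cells Plxnb2 (35.8 TPM) and Lrp8 (13.0 TPM) lay above Plxnb1 (10.3 TPM). Dab1 was not first in every group of 4.5 months. In the 6 IPC cells of that age it was at 38.3 TPM in 1 cell and 0 in the others. Lrp8 was at 53.9, 34.45, 23.4 and 2.45 TPM in 4 of these cells. In blue qNSC cells of that age Dab1 reached 3.49 TPM and Plxnb1 117 TPM. A read was found in 55 cells for Plxnb1, 54 for Dab1, 27 for Lrp8, 23 for Plxnb2, 9 for Vldlr and 6 for Plxnb3. With the ages pooled, 35 cells had a read of Vldlr or Lrp8, fewer than the 54 with Dab1, and 1 cell had both receptors. At 4.5 months 19 cells had a receptor and 16 had Dab1, against 16 with a receptor and 38 with Dab1 at 2 months; in IPC cells 6 had a receptor and 5 had Dab1. In the plot of single cells, most values of the 4 less read genes lie at 0 with a few cells far above.

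**Figure D1:**
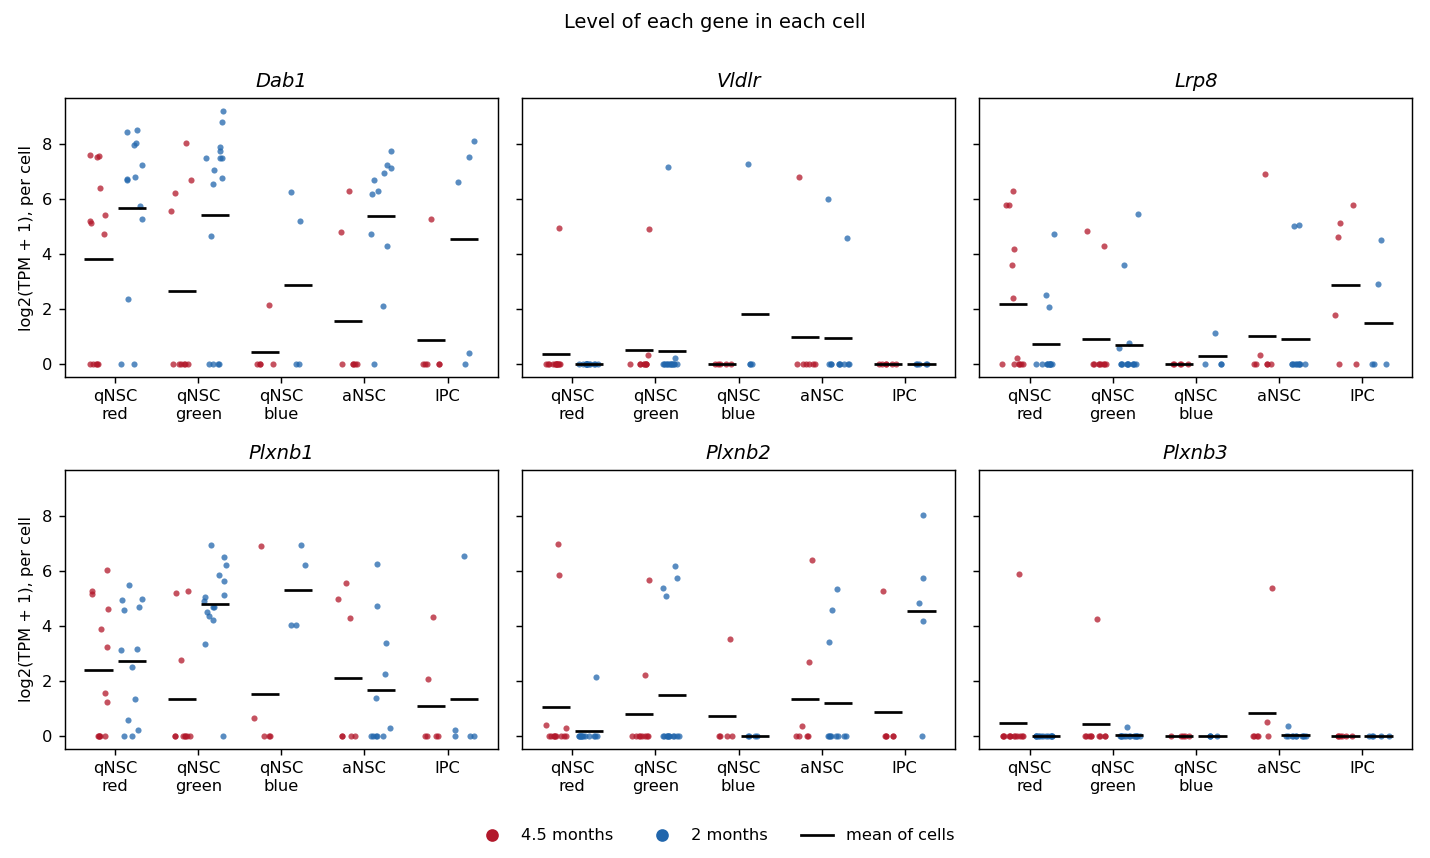
Level of each gene in each cell, as log2(TPM + 1), by class, qNSC colour and age; points are cells, 4.5 months left of 2 months, and bars are means. Dab1 lies lower at 4.5 months in every class, Plxnb1 in green and blue qNSC cells, and Vldlr and Plxnb3 are at 0 in nearly all cells.

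Dab1 was read in fewer cells at 4.5 months, and at a lower level where it was read. It had a read in 16 of 41 cells of 4.5 months (39.02%, exact 95% interval 24.2 to 55.5) and in 38 of 48 cells of 2 months (79.2%, 65.0 to 89.5); these intervals and those below cover counting error only. TPM ran from 0 to 263 with a median of 0 in cells of 4.5 months, and from 0 to 592 with a median of 101 in cells of 2 months. The 2 ages overlapped, since cells with no read occurred in both. In cells with a read, the median was 60.2 TPM at 4.5 months and 117 TPM at 2 months. Mean log2(CPM + 1) was 2.49 ± 3.29 at 4.5 months and 5.47 ± 3.37 at 2 months, a difference of -2.98, and the CPM of the summed counts was 46.4 (44.2 to 48.7) at 4.5 months and 155 (151 to 158) at 2 months.

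A size rule stands in for a test. A gene is called where either group has a read in 20% of its cells or more and where mean log2(CPM + 1) differs by at least 1, summed CPM by at least 2 times and the share of cells by at least 15 points, all in 1 direction. Over all cells, 4 of the 6 genes could be called, and Dab1 and Plxnb1 were lower at 4.5 months, where 3.08% of all 7847 genes that could be called were lower and 0.739% higher. Since these 2 genes were chosen on such values, nothing is read from that count. The median difference of all genes was -0.26.

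Dab1 was called lower at 4.5 months in each class and in each qNSC colour, with the fewest cells in blue. These groups are parts of the comparison the choice rested on, so the values are a description. In qNSC it was read in 13 of 28 cells of 4.5 months and 24 of 32 cells of 2 months, with 57.3 and 169 summed CPM and a difference of -2.57. Among green qNSC cells the counts were 4 of 10 cells at 4.5 months and 11 of 15 cells at 2 months, and TPM ran from 0 to 263 (median 0) at 4.5 months and from 0 to 592 (median 132) at 2 months, a log2 difference of -3.07. Among red qNSC cells they were 8 of 13 cells at 4.5 months and 11 of 13 cells at 2 months, with TPM from 0 to 195 (median 34.2) and from 0 to 366 (median 106) and a difference of -1.77. The red call is the least firm of these: summed CPM was 89.3 at 4.5 months and 180 at 2 months, barely past 2 times, and the call was lost with other size factors (-1.65), with cells thinned to 445311 reads (-1.45), without cells carrying markers of other types (-1.65) and without the 2-month cell with most Dab1 reads (-1.54). Blue qNSC cells had 3.49 TPM in 1 cell and 0 in the other 4 cells of 4.5 months, against 75.7, 35.8, 0 and 0 TPM in the 4 cells of 2 months; 3 of the 5 cells of 4.5 months had fewer than 445311 counts, and the part of that depth was not tested.

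Outside qNSC, the adaptor showed the same direction in few cells. It was read in 2 of 7 aNSC cells of 4.5 months and 10 of 11 aNSC cells of 2 months, with TPM from 0 to 77.4 (median 0) at 4.5 months and from 0 to 213 (median 78.2) at 2 months. The difference was -3.84; with thinned cells it was -2.54 and the gene was no longer called. Without the 7 Pdgfra cells it had a read in 1 of 4 aNSC cells of 4.5 months and 7 of 7 of 2 months (-4.59), the single call of 4 genes, against 19.7% of all genes lower and 19.5% higher, and lost with thinned cells. IPC cells had a read in 1 of 6 cells of 4.5 months (38.3 TPM) and in 4 of 5 cells of 2 months, whose values were 276, 185, 98.8, 0.31 and 0 TPM, a difference of -3.70. The lowest 2-month IPC cells lie within the range of the 4.5-month cells. All these comparisons share the mice of each age.

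**Figure D2:**
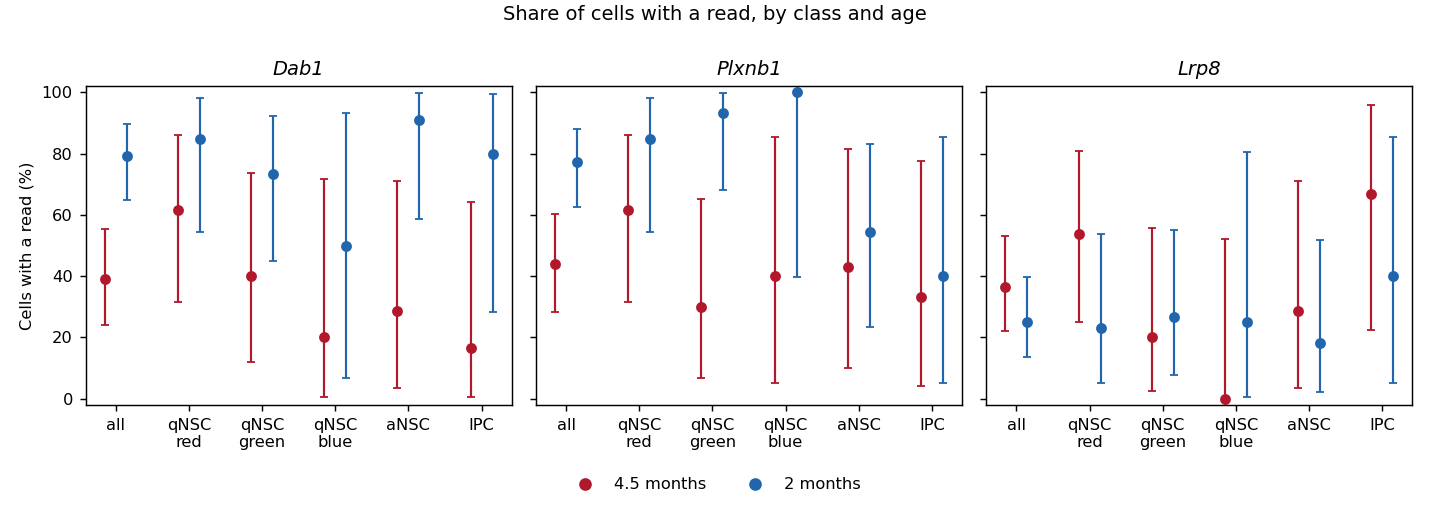
Percent of cells with a read of Dab1, Plxnb1 and Lrp8 by class and qNSC colour, 4.5 months left of 2 months, with exact 95% binomial intervals. Dab1 is read in 39.02% of cells of 4.5 months and 79.2% of cells of 2 months; for Plxnb1 the ages lie farthest apart in green and blue qNSC cells, and for Lrp8 red qNSC and IPC cells of 4.5 months lie higher with intervals that overlap.

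Plxnb1, the semaphorin receptor, was lower at 4.5 months in qNSC cells, with large differences in green and blue cells and no call in red ones. It was read in 13 of 28 qNSC cells of 4.5 months (46.4%, 27.5 to 66.1) and 29 of 32 of 2 months (90.6%, 74.98 to 98.02). TPM ran from 0 to 117 with a median of 0 in qNSC cells of 4.5 months, and from 0 to 121 with a median of 23.6 in those of 2 months. Mean log2(CPM + 1) was 2.94 ± 3.55 at 4.5 months and 6.14 ± 2.78 at 2 months (-3.20), and summed CPM 70.0 and 200. Unlike Dab1, it was little lower in the cells that had a read: their median was 23.6 TPM at 4.5 months and 24.7 TPM at 2 months. In qNSC, 4 of the 6 genes could be called and 2 were lower and 0 higher, with 5.62% of all genes lower and 2.53% higher; again Dab1 and Plxnb1 were the genes the choice rested on.

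In green qNSC cells Plxnb1 was read in 3 of 10 cells of 4.5 months and 14 of 15 cells of 2 months. TPM ran from 0 to 37.96 (median 0) at 4.5 months and from 0 to 120 (median 28.9) at 2 months, a log2 difference of -5.00, and only 1 of 15 cells of 2 months lay at 0. Both genes called in green cells, Dab1 and Plxnb1, were lower, of 5 that could be called, against 11.6% of all genes lower and 8.79% higher. Blue cells had 117, 0.58, 0, 0 and 0 TPM at 4.5 months, against 121, 73.8, 15.5 and 15.2 TPM at 2 months (-5.49); the groups overlap through 1 cell of 4.5 months. In blue cells Dab1, Plxnb1 and Vldlr were called lower and Plxnb2 higher, of 5 that could be called, against 23% and 13.1% of all genes. None of these 4 calls held without the cell with most reads of the gene, and the Vldlr and Plxnb2 calls rest on 1 cell each. Without the blue cells the qNSC difference was -2.83 for Plxnb1 and -2.28 for Dab1.

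In red qNSC cells the gene was not called. Plxnb1 was read in 8 of 13 red cells of 4.5 months and 11 of 13 of 2 months, with TPM from 0 to 63.8 (median 1.98) and from 0 to 43.3 (median 7.73), so that the ranges overlap widely. The summed CPM was 79.98 at 4.5 months and 76.8 at 2 months, and the log2 difference was -0.71. Whether the difference by age itself differs between red and green cells was not tested. In aNSC it was read in 3 of 7 cells of 4.5 months and 6 of 11 of 2 months (difference 0.38), and in IPC in 2 of 6 cells of 4.5 months and 2 of 5 of 2 months (-0.05).

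Neither reelin receptor was called lower at 4.5 months in any class, though Vldlr was in the blue cells. Lrp8, which besides reelin binds apolipoprotein E and selenoprotein P, was read in 15 of 41 cells of 4.5 months (36.6%, 22.1 to 53.1) and 12 of 48 of 2 months (25%, 13.6 to 39.6), with 58.8 and 17.6 summed CPM and a difference of 0.97, which is not called. In red qNSC cells it was read in 7 of 13 cells of 4.5 months and 3 of 13 cells of 2 months. TPM ran there from 0 to 77.2 (median 0.17) at 4.5 months and from 0 to 25.9 (median 0) at 2 months, the log2 difference was 2.02 and summed CPM 64.4 and 8.39. Plxnb2 was also called higher in red cells of 4.5 months, so that 2 of 4 genes that could be called were higher and 1, Dab1, lower, against 9.22% and 12.3% of all genes. The Lrp8 call held in every alternative run for it; in green qNSC cells, with 2 of 10 cells of 4.5 months and 4 of 15 of 2 months, the difference was 0.24.

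IPC cells gave the highest share of cells with Lrp8. It was read in 6 of 11 IPC cells (54.5%), 4 of 18 aNSC cells (22.2%) and 17 of 60 qNSC cells (28.3%), with a difference of 1.88 between IPC and qNSC. At 4.5 months 4 of 6 IPC cells had a read, with TPM from 0 to 53.9 (median 12.9), against 22.04, 6.49, 0, 0 and 0 TPM in the 5 cells of 2 months, a difference of 2.03 that held in every alternative. None of the 4 IPC cells of 4.5 months with Lrp8 had a read of Dab1, which was read in 1 of all 6 such cells. The call between IPC and qNSC was lost with a pseudocount of 10 (0.995) and without the IPC cell with most Lrp8 reads (1.41).

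Vldlr, the second reelin receptor, was read in 9 cells, of which 7 had 10 or more reads. The 4 cells of 4.5 months had 110, 30.2, 29.4 and 0.25 TPM, and the 5 cells of 2 months 153, 144, 62.6, 22.8 and 0.18 TPM. When present at more than a trace it was thus at 22.8 TPM or above. No IPC cell had a read (0 of 11; taking 3 cells as the limit, this allows a share of cells with a read of up to 27.3%, and the exact interval reaches 28.5%), and in qNSC it was read in 3 of 28 cells of 4.5 months and 3 of 32 of 2 months (-0.07). Of the 9 cells, 4 also had Dab1 and 1 had Lrp8, against 54 and 27 of all 89 cells.

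The share of Dab1 cells with a receptor lay near that of all cells. Of the 54 cells with Dab1, 18 also had a read of Vldlr or Lrp8 and 36 had neither. Of all 89 cells, 35 had a receptor, 17 of them without Dab1. At 4.5 months 8 of 16 Dab1 cells had a receptor, as did 19 of all 41 cells. At 2 months 10 of 38 Dab1 cells had a receptor, as did 16 of all 48 cells. In IPC cells, 1 of 6 with a receptor had Dab1, against 5 of all 11. At a bar of 10 reads, 13 cells had Dab1 with a receptor, 37 Dab1 alone and 15 a receptor alone. A transcript missed in a single cell cannot be told apart from one not made. The ligand itself was read in 1 qNSC cell (1 read) and 1 aNSC cell (173 reads), whereas Apoe, a further ligand of both receptors, was read in 60 of 60 qNSC cells.

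**Figure D3:**
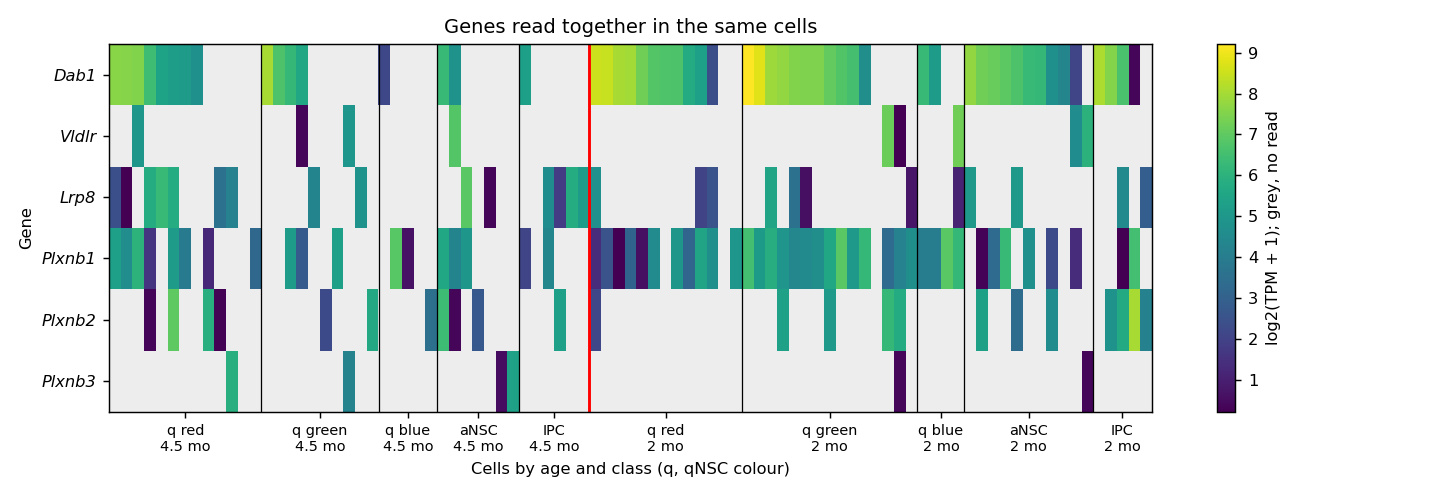
log2(TPM + 1) of the 6 genes in each of the 89 cells, as columns ordered by age (4.5 months left of the red line, 2 months right), class and Dab1 level; grey marks no read. Dab1 and Plxnb1 are read together in 31 qNSC cells, and Vldlr is read in 9 cells and Plxnb3 in 6, none of them IPC.

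Dab1 and Plxnb1 were read together in 31 of 60 qNSC cells, 8 of 4.5 months and 23 of 2 months. Neither was read in 12, of which 10 were of 4.5 months and 2 of 2 months. Of the 60 cells, 37 had Dab1 and 42 had Plxnb1. Median totals were 884721 counts in cells with both and 1012725 in cells with neither. Across the 60 qNSC cells, log2(CPM + 1) of the 2 genes had a Pearson r of 0.34. It is a description over cells that differ in age and library depth. Both genes were lower at 4.5 months in qNSC, and the part of age and depth in r was not tested. The genes most like Dab1 by the same measure were Pomp (0.47), Ubqln1 (0.46) and Med10 (0.45), and those most like Plxnb1 were Atp5e (0.49), Ivd (0.46) and Entpd2 (0.44), the first 3 of 6298 genes compared for each. For Lrp8 they were Tnfsf12, Erbb2ip and Hnrnph3 (0.46 to 0.48). Over all 89 cells, the genes most like Dab1 were Mocs2 (0.42), Eif2s3y (0.41) and Idh1 (0.41). Eif2s3y is Y-linked, and the part of the sex-linked difference between the ages in these values was not tested.

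Plxnb2, a receptor for class 4 semaphorins, was called lower at 4.5 months in IPC cells. The 6 IPC cells of 4.5 months had 37.8 TPM in 1 cell and 0 in 5, against 260, 51.9, 27.2, 17.1 and 0 TPM in the 5 IPC cells of 2 months, a difference of -4.90. All but 1 of the 2-month cells had a read, and the groups overlap through that cell and the single 4.5-month cell. The call held in every alternative. Among IPC cells, 4 of 6 genes could be called; 2 were lower at 4.5 months (Dab1 and Plxnb2) and 1 higher (Lrp8), against 22.8% and 7.95% of all genes. In red qNSC cells Plxnb2 was read in 4 of 13 cells of 4.5 months and 1 of 13 of 2 months (1.16), but 1 cell held 53.3% of the reads at 4.5 months and without it the difference was 0.53; the call was also lost on deposited TPM, with a pseudocount of 10 and with thinned cells. In qNSC as a whole, all 5 cells of 2 months with Plxnb2 also had Plxnb1, against 3 of 7 at 4.5 months. These counts lie near the shares of all qNSC cells with Plxnb1, 29 of 32 at 2 months and 13 of 28 at 4.5 months.

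Plxnb3 was nearly absent. It was read in 4 of 41 cells of 4.5 months, with 57.8, 40.2, 18.02 and 0.42 TPM, and in 2 of 48 cells of 2 months, with 0.28 and 0.25 TPM, each from 1 read. The 3 cells with 10 or more reads were all of 4.5 months; the gene is X-linked, and its age difference cannot be told apart from the sex-linked one above. None of the 6 cells had a read of Dab1, against 54 of all 89 cells. It was called higher in aNSC cells of 4.5 months, where 1 of 5 genes that could be called was higher and 1, Dab1, lower against 11.6% and 15.5% of all genes, but 1 cell gave 214 of its 215 reads and without that cell the call was lost (0.12), as in 4 other alternatives.

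Between classes, with the ages pooled, Plxnb1 was the gene that was lower outside qNSC. At 2 months it was read in 6 of 11 aNSC, 2 of 5 IPC and 29 of 32 qNSC cells. At 4.5 months the counts were 3 of 7, 2 of 6 and 13 of 28, so that the aNSC share lay near that of qNSC. Over both ages it was read in 9 of 18 aNSC cells and 4 of 11 IPC cells, against 42 of 60 qNSC cells. Mean TPM was 11.8 ± 20.95 in aNSC cells, 10.3 ± 27.4 in IPC cells and 23.03 ± 30.99 in qNSC cells. The difference was -1.76 between aNSC and qNSC, the single call among 4 genes (3.15% of all genes were lower), and it was lost on deposited TPM (-1.17) and without cells carrying markers of other types (-1.33). With the Pdgfra cells left out of aNSC, Plxnb1 was again the single call of 4 against qNSC, where 3.32% of all genes were lower and 16.9% higher, and it was lost in 4 alternatives. Between IPC and qNSC it was -2.74 and held in every alternative; there Plxnb1 was lower and Lrp8 and Plxnb2 (2.25) higher, against 12.2% of all genes lower and 31.8% higher. Plxnb2 was no longer called without the IPC cell of 260 TPM (1.61). By age, it was read in 4 of 5 IPC and 5 of 32 qNSC cells of 2 months. At 4.5 months it was read in 1 of 6 IPC and 7 of 28 qNSC cells, so its share in IPC was not higher there. Between IPC and aNSC none of 4 genes was called, where 13.5% of all genes were higher and 18.3% lower, nor without the Pdgfra cells, where 19.3% were higher and 18.1% lower. Dab1 was read in 12 of 18 aNSC cells, 5 of 11 IPC cells and 37 of 60 qNSC cells and was called in none of these comparisons.

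**Figure D4:**
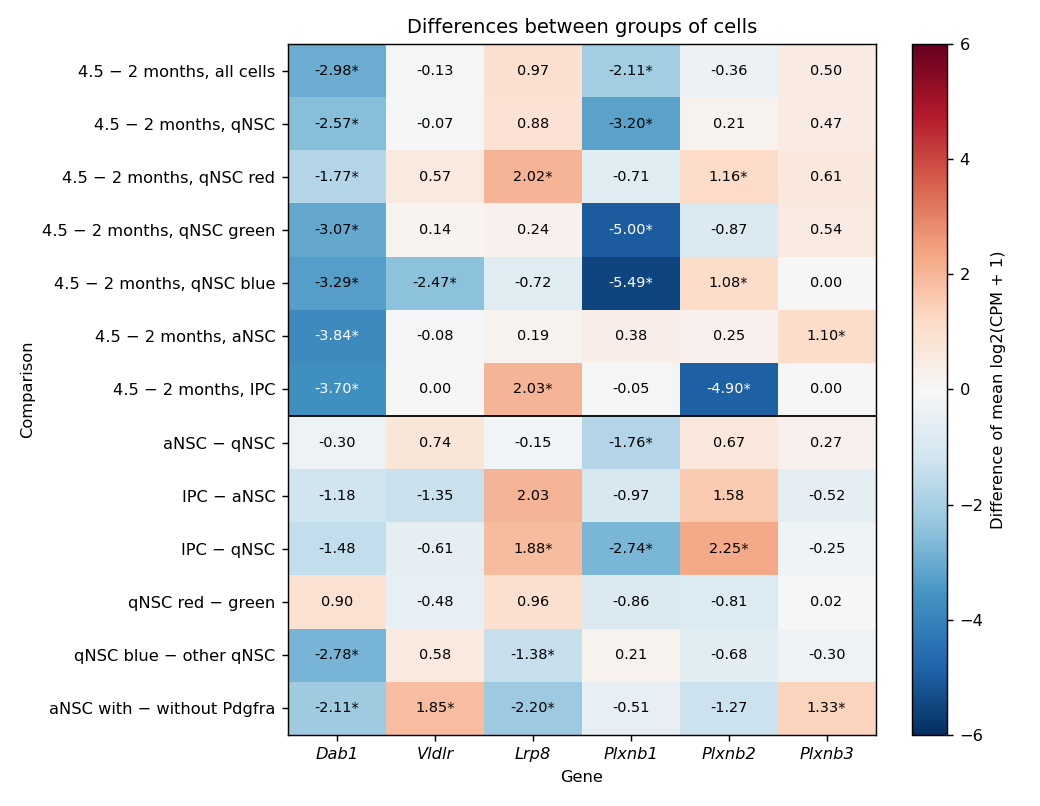
Difference of mean log2(CPM + 1) for each gene (columns) in each comparison (rows), with 4.5 minus 2 months above the line and class comparisons below it; asterisks mark genes that met the size rule. Dab1 is lower at 4.5 months in every class and qNSC colour (-1.77 to -3.84), Plxnb1 in green (-5.00) and blue (-5.49) qNSC cells, and Lrp8 is higher at 4.5 months in red qNSC (2.02) and IPC (2.03) cells.

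By the size rule, the 7 aNSC cells with Pdgfra differed from the other 11 in some of the 6 genes, on few cells. Lrp8 had no read in the 7 cells (0 of 7; taking 3 cells as the limit, this allows up to 42.9%, and the exact interval reaches 40.96%) and was read in 4 of 11 others, at least 264-fold lower in summed CPM taking 3 counts in the 7 cells together as the lower limit. The exact interval for the 7 cells takes in the 36.4% of the others. One cell held 619 of the 905 reads in the 11 cells. Without it the bound was 96.1-fold, and the call held in this and every other alternative. Plxnb3 was read in 3 of 7 cells with Pdgfra and 0 of 11 without, but 2 of the 3 had 1 read each. Vldlr was read in 2 of 7 cells with Pdgfra, at 110 and 62.6 TPM, and 1 of 11 without, at 22.8 TPM. Dab1 was read in 4 of 7 cells with Pdgfra (0 to 78.2 TPM, median 18.6) and 8 of 11 without (0 to 213 TPM, median 77.4), a difference of -2.11 that was no longer called with thinned cells. Of the 6 genes, 2 were higher (Vldlr and Plxnb3) and 2 lower (Dab1 and Lrp8), against 22.7% and 13% of all genes. Without each gene's cell with most reads, 0 were called higher and 1, Lrp8, lower. The 7 cells also had 4955 to 11894 summed TPM of the 8 oligodendrocyte precursor markers, against 0 to 175 in the other 11 cells; the part of cell type in these differences was not tested.

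Among qNSC colours, none of 4 genes was called between red and green cells, where 4.43% of all genes were higher and 7.74% lower. With the ages pooled, summed CPM of Plxnb1 was 78.4 in red and 169 in green cells, though it was read in 19 of 26 and 17 of 25 cells. The direction was not the same by age: green cells had the lower summed CPM at 4.5 months and the higher at 2 months. In cells thinned to 445311 reads, it was read in 61.5% of red and 30% of green cells of 4.5 months. At 2 months the thinned shares were 81.8% and 93.3%. The blue cells had Dab1 in 3 of 9 cells, against 34 of 51 other qNSC cells (-2.78), and Lrp8 in 1 of 9, against 16 of 51 (-1.38); both were called lower, as were 15.7% of all genes. Dab1 lost this call with other size factors and with thinned cells, and Lrp8 lost it on deposited TPM, with a pseudocount of 10 and with thinned cells. The 5 blue cells of 4.5 months had the low totals given above, and the part of depth was not tested beyond these alternatives.

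The other genes of both pathways, in 6 lists with 77 genes, were called with age in few cases over all cells and over qNSC cells. In qNSC cells, of 24 kinases and Dab1 partners 19 could be called, with 1 higher at 4.5 months and 0 lower and a median difference of -0.11, against -0.22 for all genes, of which 2.53% were higher and 5.62% lower. The one was Pafah1b2, a subunit of the brain platelet-activating factor acetylhydrolase that binds Lis1, read in 57.1% of qNSC cells of 4.5 months and 34.4% of 2 months (121 and 26.97 summed CPM). Fyn, the main Dab1 kinase, was read in 42.9% of qNSC cells of 4.5 months and 46.9% of 2 months and was not called. Among 14 genes of receptor trafficking, 7 could be called and Snx17, a sorting nexin that binds lipoprotein receptor tails, was higher (78.6% and 59.4% of cells, difference 1.02), with 0 lower. Of 17 plexin B co-receptors and effectors, 10 could be called and 1 was lower: Rnd3, a small GTP-binding protein, in 14.3% of qNSC cells of 4.5 months and 37.5% of 2 months (-1.39). With so few genes called, these counts are not set apart from the shares of all genes. No class 4 or 5 semaphorin, other plexin or receptor ligand was called; Apoe and Clu were read in 60 of 60 qNSC cells, so that the share criterion could not be met for them. Sema4d was read in 6 of 28 qNSC cells of 4.5 months and 5 of 32 of 2 months. Over all cells Rnd3 was the single gene of the 6 lists that was called (-1.66).

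In the smaller groups more of these genes were called, in both directions, as were more of all genes; the genes below are described singly, and no list is set apart from all genes by them. In IPC cells the Dab1 kinase Fyn was lower at 4.5 months together with Dab1 (33.3% of cells of 4.5 months and 80% of 2 months, 17.4 and 395 summed CPM, difference -5.14; without the 2-month cell with 1181 reads, 198 summed CPM at 2 months and -4.31, still called), as were the phosphoinositide kinase subunits Pik3r1 and Pik3ca, and Mapk8ip1 was higher, of 22 kinases and partners, against 22.8% of all genes lower and 7.95% higher. In aNSC cells 4 of 22 were higher and 3 lower, against 11.6% and 15.5% of all genes; the adaptor Crk, which binds phosphorylated Dab1, was read in 85.7% of aNSC cells of 4.5 months and 36.4% of 2 months (3.60). In red qNSC cells Crk was likewise higher (1.65). Rnd3 was lower at 4.5 months in red qNSC and in IPC cells. In green qNSC cells, where Plxnb1 was lower, its ligand Sema4d was called higher, in 40% of cells of 4.5 months and 6.67% of 2 months, at 13.5 and 1.34 summed CPM (1.68). Sema4g was also higher there, of 5 semaphorins that could be called, against 8.79% of all genes, while 3 of 4 (Sema4a, Sema4b and Sema4g) were lower in aNSC cells of 4.5 months, against 15.5% of all genes.

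Between classes more of these genes differed, as did all genes. Between aNSC and qNSC, 6 of 21 kinases and partners that could be called were higher, among them Fyn (72.2% and 45% of cells, difference 1.95, but 0.10 without the Pdgfra cells) and the adaptor Crk (2.02), with 0 lower and a median of 1.03, against 0.80 and 21.2% higher for all genes. Between IPC and qNSC, 7 of 22 were higher, with the largest difference in Pafah1b3 (90.9% and 10% of cells, 5.49), and 0 lower, near the 31.8% of all genes. Plexin B effectors went both ways there, with 3 higher (Rnd2, Rnd3 and Rock2) and 4 lower (Arhgef12, Rras, Mras and Rock1) of 10. Of all genes, 31.8% were higher and 12.2% lower. The median difference of the 10 was -0.74, against 0.92 for all genes. Clu and Sepp1, ligands of lipoprotein receptors, were lower in IPC cells (27.7 and 16514 summed CPM of Clu in IPC and qNSC cells, and 69.2 and 1018 of Sepp1), while the uptake receptor Lrp1 was read in 18.2% of IPC cells and 66.7% of qNSC cells (-2.86). Apoe had 1706 summed CPM in IPC and 31125 in qNSC cells. It was read in every cell of both classes, so the share criterion could not be met and it was not called. Sema4a was read in 0 of 11 IPC cells and 30% of qNSC cells.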

How the data were processed

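The cells were prepared with a full-length kit (SMART-Seq v4) and, per the submitters' processing notes, handled with STAR, RSEM and mm10; versions are not given in the sources used here. The authors deposited estimated counts per gene and cell, of which 4.44% of the values above 0 are not whole, and these were rounded. The authors also deposited TPM values, which sum to 1000000 per cell. Another deposited table gives class and colour. The TPM values were used to compare levels between genes. CPM were computed here from the rounded counts over each cell's total, and differences are those of mean log2(CPM + 1). The highest correlation between any 2 cells was 0.614, so no cell was counted as a repeat.

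With 1 sample per age, no test or p-value was possible, and calls rest on size. Shares have exact Clopper-Pearson 95% intervals, summed CPM exact Poisson ones, and folds against 0 use a floor of 3 counts over the group. Genes, pathway lists and markers were chosen with earlier results of these data known. The genes named are the 6, the list genes that were called, some fixed pathway genes, and the 3 most correlated genes per member. Pdgfra cells had 10 or more reads. The calling of differences was tested on simulated data for 1 setting only, the 28 qNSC cells of 4.5 months against the 32 of 2 months. The smaller groups were not simulated, so that test says nothing about calls in them. Python 3.11.15, numpy 2.4.6, pandas 2.3.3, scipy 1.17.1 and matplotlib 3.10.9 were used.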

Additional observations from a re-analysis of the deposited data

How the results depend on the processing

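Of 30 calls, 12 were kept under every alternative run for them and 18 were lost under at least 1; 15 other genes and comparisons gained a call and 0 called differences changed sign. The calls kept were those of Dab1 by age over all, qNSC, green qNSC and IPC cells, Plxnb1 by age over all, qNSC and green qNSC cells, Lrp8 by age in red qNSC and IPC cells, Plxnb2 by age in IPC cells, Plxnb1 between IPC and qNSC, and Lrp8 with Pdgfra. The 9 alternatives planned were joined by 2 chosen after seeing the data: leaving out the blue cells, and leaving out the cell with most reads. The last was also run for Fyn in IPC cells, which stayed called.

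The number of genes called changed as follows, and the cause was not tested. On deposited TPM, 0 were lower in aNSC against qNSC, 1 higher with Pdgfra, 1 lower in blue, 1 higher in red by age, 0 higher in blue by age and 0 higher in aNSC by age; without Pdgfra cells, 0 were lower in aNSC against qNSC and 1 higher in aNSC by age. With a pseudocount of 10, 1 was higher in IPC against qNSC, 1 higher with Pdgfra, 1 lower in blue, 1 higher in red by age, 0 higher in blue by age, 0 higher in aNSC by age and 0 lower in aNSC without Pdgfra against qNSC. With a pseudocount of 0.1, and with summed counts, 1 was higher in aNSC without Pdgfra by age. With other size factors, 1 was lower in blue and 0 in red by age. With thinned cells (80 of 89 kept), 1 was lower in IPC against aNSC, 1 higher with Pdgfra, 1 higher in red against green, 1 lower in blue, 1 higher and 0 lower in red by age, 0 higher in blue by age, and 0 higher and 0 lower in aNSC by age. The gene lower in blue was then Plxnb2 (-1.32), as Dab1 and Lrp8 both lost that call. Of the thinned cells without Pdgfra, 1 was higher in aNSC against qNSC, and 1 higher in aNSC by age. An unchanged number can also hide a change of gene. With thinned cells Plxnb2 took the place of Dab1 among genes lower with Pdgfra, and Vldlr that of Dab1 in aNSC without Pdgfra by age. Without cells carrying markers of other types, 0 were lower in aNSC against qNSC, 1 higher in IPC against aNSC, 1 (Lrp8, 1.43) higher by age over all cells and 0 lower in red by age, and without Pdgfra cells 0 lower in aNSC against qNSC, 1 higher in IPC against aNSC and 1 higher in aNSC by age; the comparison with Pdgfra against without has no value then, since all 7 of its cells are left out. Without the cell with most reads, 1 was lower in IPC against aNSC, 0 higher in IPC against qNSC, 0 higher and 1 lower with Pdgfra, 1 higher and 0 lower in red by age, 0 higher and 0 lower in blue by age, and 0 higher in aNSC by age; without Pdgfra cells, 0 were lower in aNSC against qNSC and 1 lower in IPC against aNSC. No paired analysis was possible because the numbers in the labels only name cells and the results come from no test. Depth limits the genes read in few cells: at 10 reads or more, 11 of 180 shares moved, all to 0.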
